A study of Bos taurus with 43 samples.

Results

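Biceps brachii muscle of 4 slaughtered bulls that were positive for corticosteroid treatment was compared with the same muscle of 5 untreated cross-breed bulls, which makes 9 of the 43 animals of the series. The 4 positive animals (S21, S54, S56 and S57) carry the status of suspected corticosteroid treatment in the labels and, in the study, were positive both by thymus histology and by mass spectrometry of dexamethasone in urine. The urine value of S56 lay below the limit of quantification of that method. The 5 cross-breed animals (K7, K8, K10, K11 and K12) are negative controls, Charolais by Limousine males taken from earlier controlled experiments. The positive animals were commercial males of a survey that held mostly Charolais, Limousine and their crosses, but their own breed, dose and duration of treatment are not given in the sources used here. The ages of the surveyed animals spanned that of the controls. Total RNA of 1 animal was hybridized to each single-colour array, and p-values measure the spread between these animals. Where it helps to place a level, the 13 Holstein controls, also untreated males, and the 4 unknown commercial animals that shared slides with the positive animals (50, 78, 79 and 81) are given beside them.

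The 2 groups had no slide, scan day, scanner or version of the extraction software in common. The positive animals lay on 2 slides scanned on 1 day, the controls on 4 slides scanned on 3 days. Treatment, origin of the animals and array batch therefore changed together, and their parts in any difference below cannot be told apart. The arrays also differed in signal against background: the share of gene spots well above background was 74.9%, 77.6%, 82.0% and 89.4% in S21, S54, S56 and S57, and 62.9%, 66.6%, 67.1%, 65.7% and 73.6% in K7, K8, K10, K11 and K12. The groups did not overlap, with means of 81.0% ± 6.32 (SD, n = 4) and 67.2% ± 3.96 (SD, n = 5), and p was 0.0159 in a two-sided exact permutation test (126 splits). The mean log2 signal of the spike-in RNAs, which are added in fixed amounts, after normalization came to 10.13 ± 0.13 (SD, n = 4) for the positive animals against 9.99 ± 0.14 (SD, n = 5) for the controls (same exact test, p = 0.151).

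Glucocorticoids act through the glucocorticoid receptor, a transcription factor that moves to the nucleus once it has bound its ligand and switches target genes on or off. In skeletal muscle a long exposure is known to cause loss of mass, above all of fast-twitch fibres, through ubiquitin ligases, autophagy and restraint of growth signals. Fast fibres contract quickly and burn glycogen, slow fibres rely on mitochondria and fat, and each type builds its sarcomere from its own isoforms of myosin, troponin and tropomyosin. The identity of a muscle along the body and the limb is kept by homeobox genes, which stay switched on in the adult tissue according to its position.

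The labelled tissue was checked first. The 21 tested genes of skeletal muscle identity were well above background on every array, with MB, myoglobin, at 18.29 to 18.81 in the positive animals and 17.23 to 18.08 in the controls on the normalized log2 scale used for every level below. Of these 21 genes, 1 (ACTA1, log2 change 1.41, and 0.45 with pairwise cyclic loess) was called higher and 5 (RYR1, SMPX, TRIM63, TTN and XIRP1) lower, at -1.54 to -1.02, while 2 to 9 were lower over the alternatives. A second TTN probe changed by 0.99, and XIRP1 lost its call without S21, S56, S57, K7, K8 or K11 (-1.03 to -0.72). Levels are comparable between animals for 1 probe and not between probes. A probe was called where limma gave a Benjamini-Hochberg adjusted p under 0.05 and a change of at least 2-fold, which is 1 on the log2 scale. Every log2 change is positive minus cross-breed.

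Of 16354 probes tested, 4597 were called, or 28.1%, where 1378 of 21475 were called when normexp corrected the background. Of the 16354, 14.4% were higher and 13.8% lower in the positive animals, and for 43.3% the values of the 2 groups did not overlap. The balance of both directions rested on the scaling: 51.1% of the called probes were higher here, 69.1% with each array scaled to its 75th percentile, 39.1% after quantile normalization and 33.5% after pairwise cyclic loess, which fits all pairs of arrays, while the median log2 change of all tested probes moved from -0.03 to 0.11, -0.13 and -0.25. Among the 11914 probes well above background in all 9 animals, 9.07% were higher and 9.14% lower. Some slides and scan days held more than 1 of the 9 animals, and with slide or scan day as a random block 4432 and 4340 probes were called. Among the genes named below, CASQ2, COL3A1, FOSB, HBB, LOC100848815, NEFH, SLC7A8, SPARC and XIRP1 lost their calls with either block, and AMPD3, BCL6, EGFL7 and LCP1 with scan day alone. The 4089 dimmest probes held 1042 higher and 1089 lower calls, the 4089 brightest 327 and 268. The plot of change against brightness shows this fan. For gene lists, each gene was counted once with its brightest probe, and over all 12056 named genes 13.8% were then higher and 12.2% lower, 25.9% together, with a median log2 change of -0.002.

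**Figure D1:**
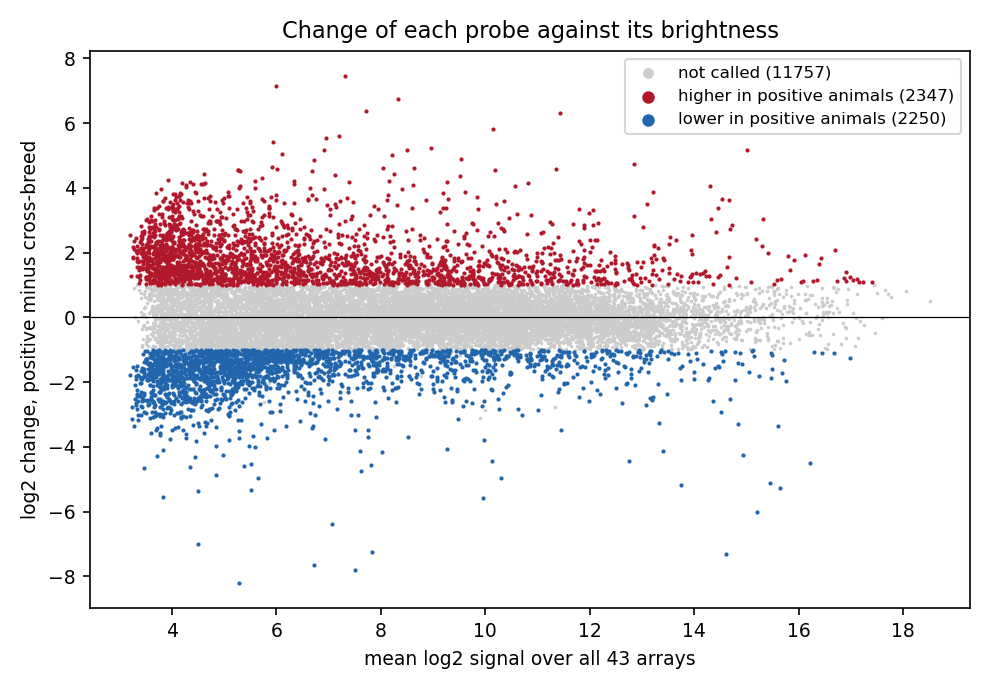
Each point is 1 of 16354 tested probes, with its mean normalized log2 signal over the 43 arrays on the x axis and its log2 change, positive minus cross-breed animals, on the y axis. Red points (2347) were called higher and blue points (2250) lower in the positive animals. Calls reached every brightness but were most frequent among the dimmest probes.

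The gene lists differed in direction and size. Called genes of fast fibres, glycolysis, the immediate early response and the extracellular matrix lay almost all below the controls, and called adipocyte, vessel and respiratory chain genes almost all above them. Genes of the glucocorticoid pathway and of muscle atrophy were called in both directions at about the share of all named genes. Axial and limb position genes held large changes both ways. The called share was 66.7% for fast fibre, 62.5% for immediate early and 55.2% for glycolysis genes, against 25.9% of all named genes. It was 50.0% for slow fibre and for energy buffer genes and 28.6% for muscle identity. Fatty acid oxidation, growth signalling and proteasome lists were called at 24.1%, 9.09% and 5.26%. In whole muscle, fewer cells of a type and less RNA per cell cannot be told apart, which holds for each cell type list below.

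**Figure D2:**
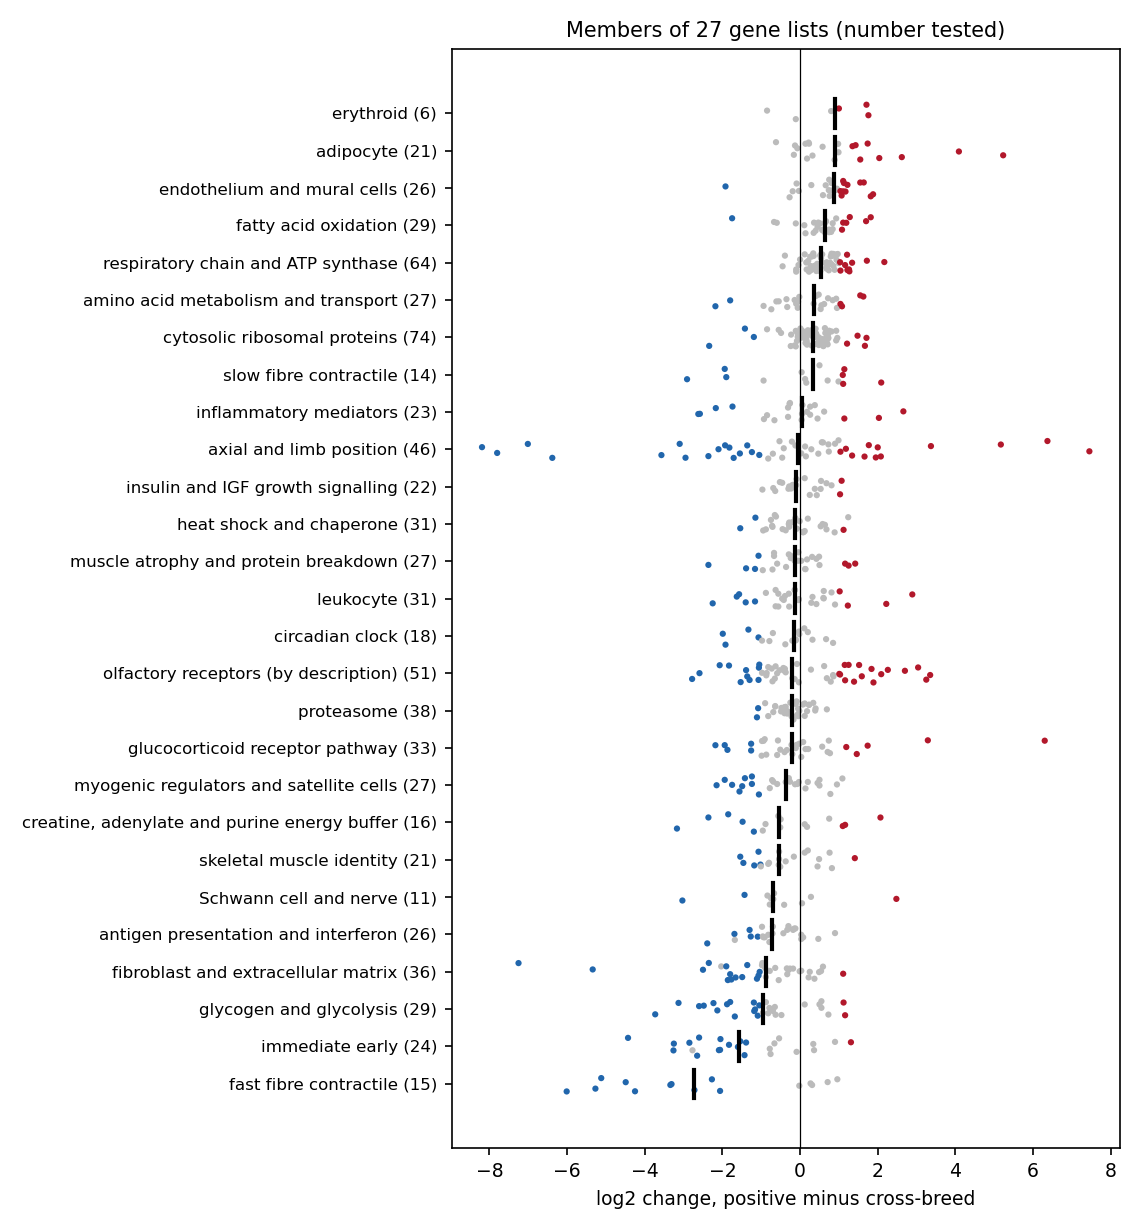
Each point is 1 tested gene of a list, placed by its log2 change, positive minus cross-breed animals; red and blue points were called higher and lower, grey points were not called, and the black bar is the median of the list. The median was -2.72 for fast fibre contractile genes and 0.89 for adipocyte genes, against -0.002 over all named genes.

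Fast fibre genes had the lowest median change of the lists. Of 15 contractile genes of fast fibres tested, 10 were lower (9 to 11 over the alternatives in processing) and 0 higher by limma, where an unadjusted p under 0.05 held for 2 higher genes. The median log2 change was -2.72. MYH1, the heavy chain of fast IIx myosin, read 13.64, 7.53, 9.37 and 8.75 in S21, S54, S56 and S57 and 17.68, 17.45, 16.98, 17.2 and 16.4 in the controls. All positive animals were below all controls, and S21 lay well above the other positive animals. The log2 change was -7.32 (SE 0.98, limma adjusted p = 1.78e-04). A second MYH1 probe changed by -4.25 (SE 0.99, adjusted p = 0.00475), with S21 at 15.25, just under the lowest control at 15.34, and its call was lost without the slide of S56 and S57 (log2 change -3.61, adjusted p = 0.0637).

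MYBPC2, fast myosin binding protein C, gave the same picture with 13.47, 8.51, 10.64 and 11.13 in the positive animals in the same order and 16.52 to 17.32 in the controls (log2 change -6.01, SE 0.76, limma adjusted p = 1.15e-04). S21 was again the highest of the positive animals and S54 the lowest. The calcium pump of fast fibres, ATP2A1, read 13.39, 10.08, 11.68 and 12.99 against 16.48 to 17.69 (log2 change -5.12, SE 0.58, adjusted p = 6.37e-05). TPM1, the alpha chain of tropomyosin, lay at 10.55 to 13.99 against 16.48 to 17.28 (log2 change -5.27, SE 0.59). The groups were apart for both. The actin cross-linker of fast fibres, ACTN3, spread much less among the positive animals, 12.18 to 13.67 against 15.65 to 16.46, and fell by 3.31 (SE 0.29). TNNT3, the fast troponin T, fell by 2.72 (SE 0.54), with S21 lowest at 10.57 and the other positive animals at 12.18 to 12.32.

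Other fast fibre genes missed the call. MYOZ1, a calcineurin-binding Z disc protein and the brightest of the list, lay at 17.29 to 17.83 and 17.13 to 17.88 (log2 change -0.02, adjusted p = 0.943), and MYH4, MYL1, MYLK2 and PVALB had log2 changes of 0.27 to 0.96. These 4 were named after their values were seen, as were all members beyond the naming rule wherever a count of 5 or fewer is spelled out below. MYH2, the heavy chain of IIa myosin, was not named on the array. For MYBPC2, ATP2A1 and TPM1 the Holstein controls lay on the side of the cross-breed controls, at 17.53 to 18.07, 17.37 to 17.97 and 17.44 to 17.95. For TNNT3 they spread from 11.88 to 14.88 and overlapped both groups, with a median of 13.16 below every cross-breed control. MYBPC2 read 14.94, 14.09, 10.18 and 15.77 in the slide-mates 50, 78, 79 and 81, where 79 lay among the positive animals and the others lay between the groups. In the same order MYH1 read 15.28, 13.95, 8.33 and 16.4, and 16.41, 15.57, 10.35 and 17.42 at its second probe. At that second probe 50, 78 and 81 lay within or above the range of the cross-breed controls, and 79 among the positive animals. For ACTN3 all 4 slide-mates lay among the positive animals (12.27 to 13.45), and for TNNT3 they lay among or near them (10.47 to 12.72). Over the fast fibre list the median difference of positive animals minus slide-mates was -0.17. The array of animal 79 stood apart, with 40.2% of gene spots well above background against 82.0% to 97.3% in the other slide-mates.

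Slow fibre genes changed less and in both directions. Of 14 tested, 4 were higher (MYL2, MYL3, MYL6B and TNNT1) and 3 lower (CASQ2, CSRP3 and SLN), with a median log2 change of 0.33. MYL3, the slow ventricular light chain, read 16.64, 16.33, 16.58 and 17.03 in the positive animals and 15.34, 14.80, 14.57, 13.71 and 14.33 in the controls. The groups were apart and the log2 change was 2.09 (SE 0.29, limma adjusted p = 2.31e-04). TNNT1, slow troponin T, rose by 1.11 (SE 0.16, adjusted p = 2.97e-04), with 17.63 to 17.96 against 16.4 to 17. MYH7, the slow myosin heavy chain, differed by 0.99 (SE 0.21) and so just missed 2-fold, although its 4 positive animals (17.84 to 18.21) were all above the 5 controls (16.52 to 17.40).

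MYL3 kept its call under every alternative, and the other 3 rises depended on the scaling. With pairwise cyclic loess the log2 change was 0.10 for TNNT1, -0.08 for MYL2 and 0.01 for MYL6B, and with quantile normalization 0.88 for TNNT1, 0.88 for MYL2 and 0.90 for MYL6B. MYL2 also fell under 2-fold without K12 (0.99). Over all alternatives 1 to 6 slow fibre genes were higher. Downward changes were as large: SLN, sarcolipin, an inhibitor of the calcium pump, read 11.75 to 13.23 against 15.29 to 15.99 (log2 change -2.91, SE 0.28, adjusted p = 2.11e-05). CSRP3, the muscle LIM protein, fell by 1.94 (SE 0.27). CASQ2, slow calsequestrin, fell by 1.90 (SE 0.72, adjusted p = 0.0469) and lost its call without S21, S56 or any 1 of the controls (log2 change -2.14 to -0.97, the last without S21, which read 6.11 where the other positive animals read 9.62 to 10.06). With slide or scan day as a random block its adjusted p was 0.105 and 0.129.

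**Figure D3:**
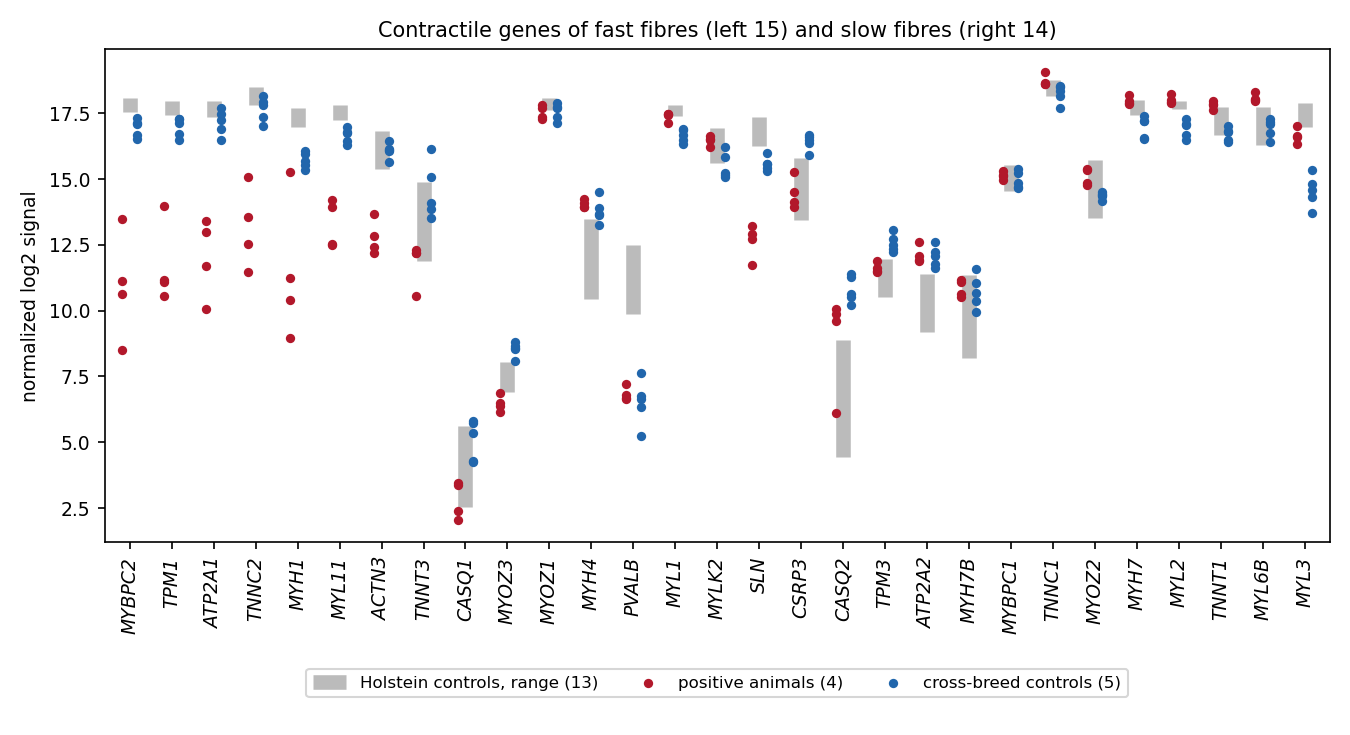
Points give the normalized log2 signal of fast and slow fibre genes in each of the 4 positive animals (red) and 5 cross-breed controls (blue), and grey bars span the 13 Holstein controls. Positive animals lay below all cross-breed controls for MYH1, MYBPC2, ATP2A1 and TPM1, with S21 the highest of the positive animals. They lay above all cross-breed controls, but not all Holstein controls, for MYL3 and TNNT1.

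Enzymes of glycogen use and glycolysis that were called were mostly lower. Of 29 tested, 14 were lower and 2 higher (LDHB and SLC16A1), with a median log2 change of -0.96, and 10 to 16 were lower over the alternatives. PKM, pyruvate kinase, read 12.88, 12.23, 12.66 and 13.43 in S21, S54, S56 and S57 and 15.59, 15.81, 15.11, 15.20 and 15.26 in the controls. The groups were far apart (log2 change -2.60, SE 0.25, limma adjusted p = 1.92e-05). PHKG1, the catalytic subunit of phosphorylase kinase in muscle, which switches glycogen breakdown on, was tight in both groups at 7.94 to 8.29 and 10.77 to 11.53 (log2 change -3.13, SE 0.18, adjusted p = 1.67e-06). BPGM, which makes the modulator of oxygen release in red cells and also acts in glycolysis, fell by 3.73 (SE 0.39) and was well above background in 1 positive animal. LDHA, the lactate dehydrogenase subunit of fast muscle, fell by 1.88 (SE 0.21), and LDHB, the subunit of oxidative tissue, rose by 1.12 (SE 0.21). PYGM, muscle glycogen phosphorylase, fell by 1.68 (SE 0.27). LDHB fell under 2-fold without K10 (log2 change 0.96) and with pairwise cyclic loess (0.36), and SLC16A1, a lactate carrier, without the slide of K7 and K8 (0.91). SLC16A1 also lost its call with pairwise cyclic loess (0.50), with normexp (0.90) and without the slide of S56 and S57 (0.98). With all 43 arrays in 1 fit its limma adjusted p was 0.0636. ALDOA, aldolase A, the brightest gene of the list, had a log2 change of 0.73 and was not called.

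Enzymes that buffer energy in muscle were called in both directions. AMPD1, the AMP deaminase of muscle, read 12.36, 12.45, 12.18 and 12.32 in the positive animals and 14.78, 15.05, 14.49, 14.61 and 14.51 in the controls. Within each group the animals were nearly level, and the difference was -2.36 (SE 0.15, limma adjusted p = 3.34e-06). CKB, brain-type creatine kinase, rose by 2.07 (SE 0.31), and CKM, the muscle type, had a log2 change of -0.51 and was not called (adjusted p = 0.0505). GATM, which makes the precursor of creatine, fell by 3.17 (SE 0.52), was well above background in 1 of the 4 positive animals and was not called with normexp (log2 change -0.73). In all, 3 of 16 were higher (CKB, CKMT2 and XDH) and 5 lower (ADSL, ADSS1, AMPD1, AMPD3 and GATM), or 9 with pairwise cyclic loess. CKMT2 was called at 1 of its 2 probes (the other 0.32), XDH likewise (the other -0.16, and 0.98 at the called probe without K10), and AMPD3 lost its call without S21 (log2 change -0.89) and in the fit blocked by scan day (-1.19, adjusted p = 0.0504).

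Most genes of fat use and of the respiratory chain were not called, and all called genes but 1 were higher. Of 64 tested subunits of the respiratory chain and ATP synthase, 10 were higher, or 15.6% against 13.8% of all named genes, and 0 lower by limma (48 and 2 at an unadjusted p under 0.05), with a median log2 change of 0.55, and the values of the groups did not overlap for 39, which was the case for 43.3% of all tested probes. The count of higher subunits was 9 to 25 over the alternatives. COX7A2, a subunit of cytochrome c oxidase, lay at 12.03 to 12.61 against 9.97 to 10.36 (log2 change 2.17, SE 0.17, limma adjusted p = 6.95e-06). NDUFC1 and NDUFA5 of complex I rose by 1.72 (SE 0.18) and 1.34 (SE 0.13). SDHA, the brightest, had a log2 change of -0.04. Of 29 genes of fatty acid oxidation, 6 were higher and 1, PPARD, lower, with a median of 0.63. PPARGC1A, the coactivator that drives mitochondrial biogenesis, read 13.12, 13.47, 13.44 and 13.10 against 11.57, 11.54, 11.25, 11.59 and 11.37. The groups were clearly apart (log2 change 1.82, SE 0.15, adjusted p = 8.42e-06), and its second probe changed by 1.49. LPL, lipoprotein lipase, rose by 1.70 (SE 0.25). PPARD, a lipid-sensing nuclear receptor, was well above background in 0 of the 4 positive animals and 1 of the 5 controls, so no fold is given, and its call was lost with each array scaled to its 75th percentile (log2 change -0.65) and with normexp (-0.30).

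The Holstein controls were placed differently from gene to gene in these lists. PPARGC1A was 12.88 to 15.63 in the Holstein controls and COX7A2 was 11.82 to 13.43, both ranges around or above the positive animals. Holstein medians below every positive animal were found for LPL (12.47), CPT1B, which carries fatty acids into mitochondria (13.65), ATP5F1B, a subunit of ATP synthase (16.73), and SDHA (16.78). PKM was 14.36 to 15.49 and AMPD1 14.13 to 14.74, near the cross-breed controls. The median difference of positive animals minus Holstein controls was -3.42 for the fast fibre list, -1.02 for glycolysis, 0.75 for fatty acid oxidation and 0.21 for the respiratory chain, against -0.05 over all named genes. Against the 4 slide-mates, whose treatment is unknown, the medians were -0.17, -0.07, 0.14 and 0.10, against 0.02 over all named genes. In the slide-mates PKM read 12.78 to 13.05, among the positive animals, and AMPD1 11.72 to 12.62, around them. All of these differences use the same 4 positive animals.

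Genes that mark the position of a muscle along the body axis and the limb were called in both directions, some with very large changes. Of 46 tested, 28 were called, 12 higher and 16 lower, and the median log2 change was -0.05. That is 60.9% against 25.9% of all named genes, but only 21 of the 46 were well above background in all 9 animals. Dim probes were called more often in general, and with normexp 7 were higher and 8 lower. HOXA11 (a probe described as this gene), a homeobox gene of the distal limb program, read 2.63, 1.5, 2.32 and 2.59 in the positive animals, where it was not well above background, and 10.31, 9.79, 11.8, 10.16 and 10.2 in the controls. It was at least 138-fold lower in the positive animals (limma adjusted p = 8.24e-07), where a bound sets the dim group at the lowest signal still well above background on each array. HOXA13 was at least 55.3-fold lower. HOXA9 and HOXA10 had log2 changes of -7.80 and -6.38, but each was well above background in 1 of the 4 positive animals, so that these differences are set against a group mostly at background. The other 3 HOXA9 probes changed by -7.65, -3.78 and -1.41.

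Other position genes ran the opposite way. MEIS2, a homeobox cofactor of the proximal limb, read 9.42, 10.49, 10.59 and 10.33 in the positive animals and 2.75, 4.43, 2.0, 2.03 and 2.58 in the controls, where it was not well above background (at least 68.4-fold higher, adjusted p = 2.81e-06). HOXC6 lay at 10.22 to 10.49 against 3.18 to 4.77 (log2 change 6.37, SE 0.29, with 2 of the 5 controls well above background), and HOXC8 at 8.74 to 10.10 against 2.79 to 5.14 (log2 change 5.17, SE 0.50, with 3 controls well above background, and 3.57 at its second probe). TBX15, a T-box factor of limb and trunk muscle, fell by 1.71 (SE 0.20), and LBX1, a homeobox factor of migrating limb muscle precursors, rose by 1.66 (SE 0.28). The positive and the cross-breed animals did not overlap for any of these 9 genes, all of them called. The same held for 4149 of the 4597 called probes and for 43.3% of all tested probes. The slide-mates lay near the positive animals, with HOXA11 at 3.21, 2.54, 5.19 and 1.87 and MEIS2 at 10.04, 9.83, 9.84 and 10.12 in animals 50, 78, 79 and 81, where the lowest signal well above background on the array of 79 was 4.85. The Holstein controls lay nearer to the cross-breed controls, at 7.05 to 9.58 for HOXA11 and 3.78 to 5.97 for MEIS2.

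The part of position in the fibre gene differences was not tested. The forelimb gene TBX5 did not pass the filter on dim probes. Both HOXC4 probes were called in opposite directions (log2 changes -1.93 and 3.20). HOXA4, of the front end of its cluster, rose by 2.08 (SE 0.17), and SHOX2, a homeobox gene of the proximal limb skeleton, was at least 4.64-fold lower. Over the alternatives 7 to 14 position genes were higher and 8 to 21 lower.

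**Figure D4:**
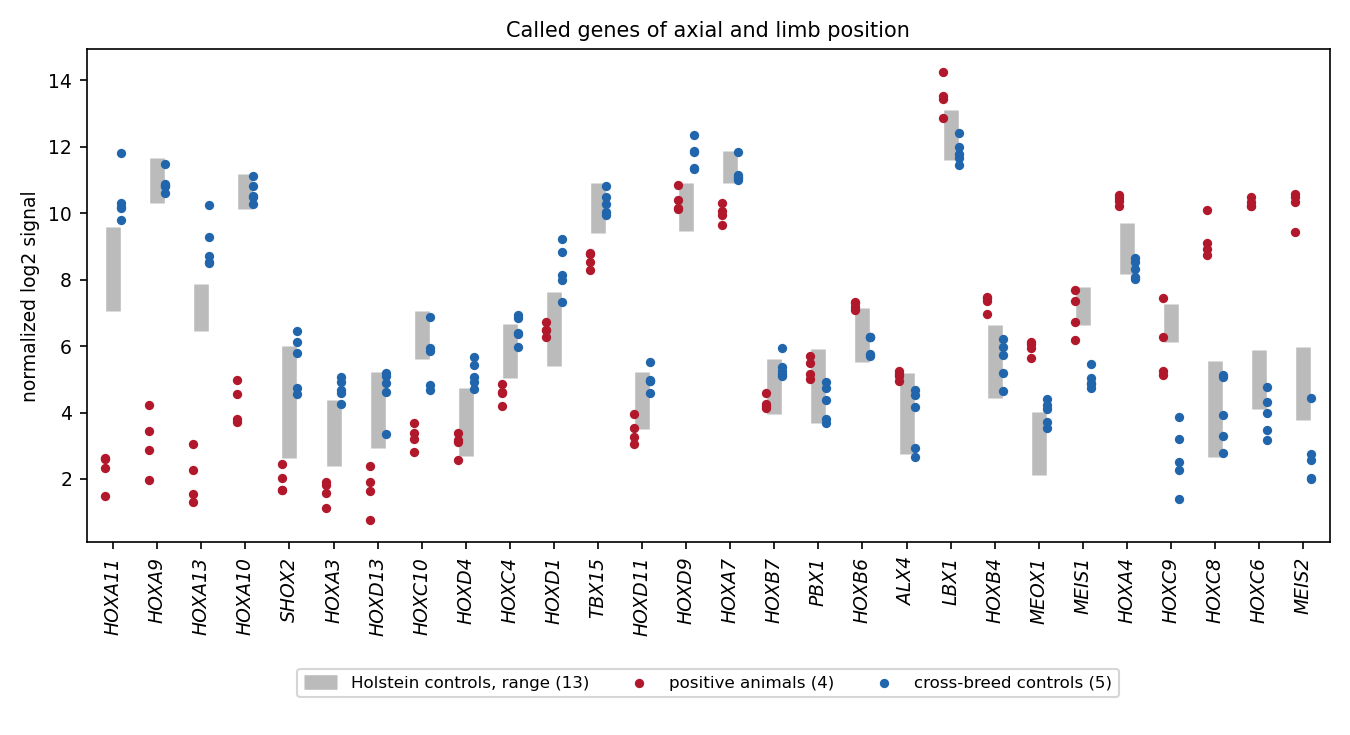
Points give the normalized log2 signal of the 28 called genes of axial and limb position in the positive animals (red) and the cross-breed controls (blue), and grey bars span the Holstein controls. HOXA9, HOXA10, HOXA11 and HOXA13 lay low in the positive animals and high in both control groups, and MEIS2, HOXC6 and HOXC8 the reverse.

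The glucocorticoid receptor itself, NR3C1, read 10.77, 11.05, 11.03 and 10.58 in the positive animals and 10.75, 11.32, 9.34, 10.54 and 9.50 in the controls. The groups overlapped and the log2 change of 0.57 was not called (SE 0.38, limma adjusted p = 0.235). Of 33 tested genes of the receptor, its chaperones and its known targets, 5 were higher (ANGPTL4, CDKN1C, MT1A, PDK4 and TSC22D3) and 5 lower (BCL6, DDIT4, DUSP1, ERRFI1 and GLUL), or 30.3% against 25.9% of all named genes, with a median log2 change of -0.20, and 9 were lower with pairwise cyclic loess. FKBP5, a chaperone of the receptor that it induces in many tissues, was 10.40 to 11.16 against 10.66 to 11.64 (log2 change -0.51, adjusted p = 0.0976). PER1, a clock gene and known receptor target, had a log2 change of -0.11 (adjusted p = 0.766), and KLF15, a target that drives amino acid breakdown, one of -0.94, under 2-fold.

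ANGPTL4, a secreted inhibitor of lipoprotein lipase and a known receptor target, changed most of this list. It read 13.15, 13.61, 13.75 and 13.86 in S21, S54, S56 and S57 and 7.78, 7.82, 6.2, 6.65 and 8.01 in the controls. The groups lay far apart, at 78.8-fold (log2 change 6.30, SE 0.37, limma adjusted p = 1.83e-06). The Holstein controls, untreated as well, spread from 9.13 to 14.05, with a median of 11.29. TSC22D3, the glucocorticoid-induced leucine zipper, was dim, at 5.10 to 5.44 against 2.64 to 4.20 (log2 change 1.74, SE 0.29, adjusted p = 6.25e-04), inside the Holstein range of 5.09 to 6.81, and 1 of the 5 controls was well above background. Its sign turned with pairwise cyclic loess (log2 change -0.33) and its call was lost with normexp background correction (0.45).

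MT1A, a metal-binding protein induced by glucocorticoids and metals, was at least 5.57-fold higher (6.38 to 6.75 against 2.65 to 4.33). PDK4, a kinase that holds back glucose oxidation, rose by 1.19 (SE 0.31), with overlapping groups, lost its call without the slide of K7 and K8 (log2 change 0.81) or that of S21 and S54 (1.07), and was higher still in the Holstein controls at 13.13 to 15.14. CDKN1C, a cell cycle inhibitor, rose by 1.46 (SE 0.24). Targets that were lower include GLUL, glutamine synthetase, with 10.73, 11.32, 10.48 and 9.90 against 13.35, 12.61, 12.47, 12.66 and 12.83. All positive animals were below all controls (log2 change -2.18, SE 0.28, adjusted p = 1.32e-04), and the Holstein controls were at 12.63 to 13.79. DDIT4, an inhibitor of mTOR signalling, and DUSP1, a MAP kinase phosphatase, fell by 1.94 (SE 0.24) and 1.87 (SE 0.38), and ERRFI1, a brake on EGF receptors, by 1.26 (SE 0.27). BCL6, a transcriptional repressor, fell by 1.26 (SE 0.46, adjusted p = 0.0406). Its other probe changed by 0.17, and its call was lost without S21, S54, S57, K10, K11 or K12 (log2 change -1.29 to -0.98) and in the fit blocked by scan day (adjusted p = 0.0773).

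**Figure D5:**
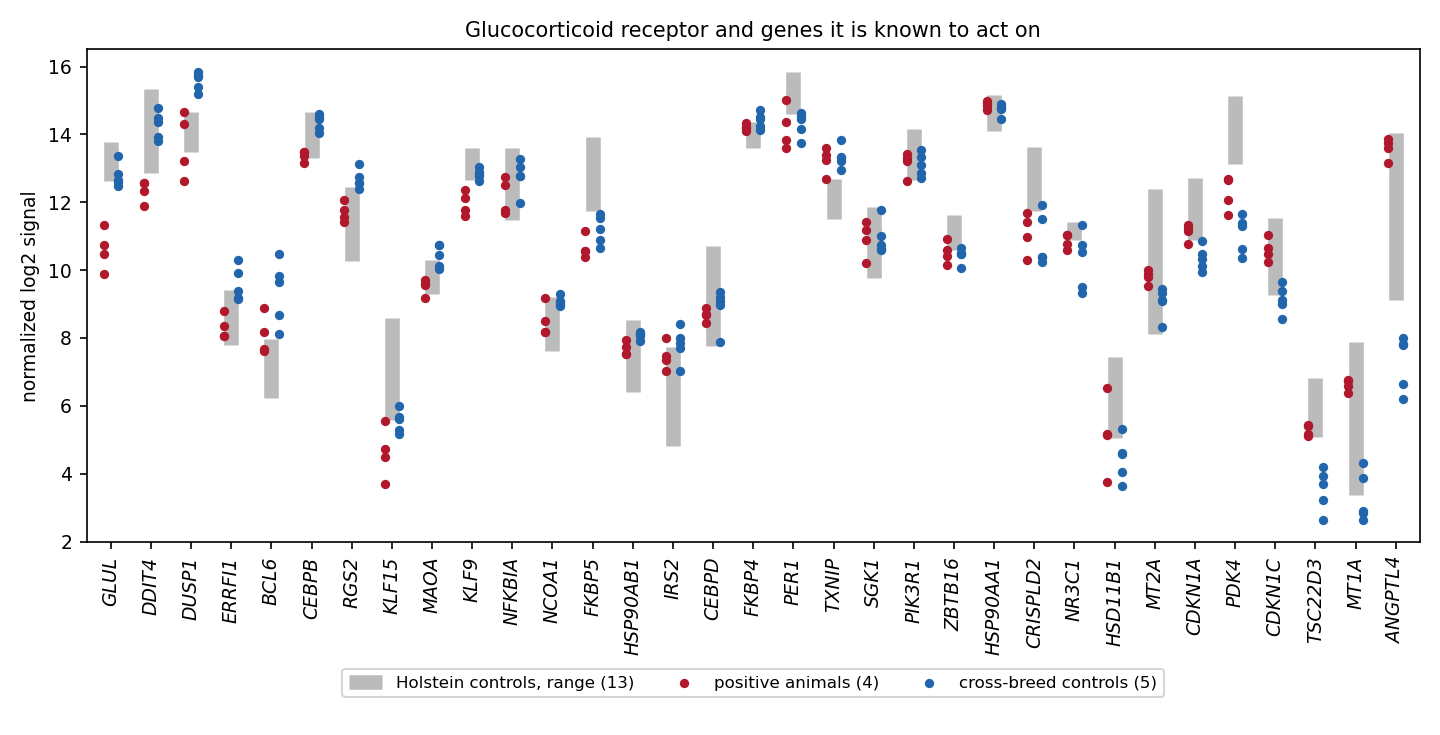
Points give the normalized log2 signal of the 33 tested genes of the glucocorticoid pathway in the positive animals (red) and the cross-breed controls (blue), ordered by log2 change, and grey bars span the 13 Holstein controls. ANGPTL4 and MT1A lay above and GLUL and DDIT4 below all cross-breed controls, while NR3C1, FKBP5 and PER1 overlapped.

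Muscle atrophy genes were called in both directions. Of 27 tested, 3 were higher (GABARAPL1, MAP1LC3A and UBB) and 4 lower (BNIP3, FBXO40, MSTN and TRIM63), with a median log2 change of -0.14, and 1 was lower with each array scaled to its 75th percentile. FBXO32 and TRIM63, the ubiquitin ligases atrogin-1 and MuRF1 that mark wasting muscle, were not called higher. FBXO32 lay at 14.56 to 14.91 and 14.11 to 15.11 (log2 change -0.04, limma adjusted p = 0.874). TRIM63 read 13.51, 14.04, 13.70 and 13.38 in the positive animals against 14.61, 14.94, 14.61, 14.78 and 14.72 in the controls. All 4 were below all 5 (log2 change -1.07, SE 0.16), although the change fell short of 2-fold without S57 (-0.98) and under 4 other scalings or background corrections (-0.92 to -0.78).

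MSTN, myostatin, which restrains muscle growth, read 5.35, 5.05, 5.54 and 5.25 against 7.54, 7.12, 8.55, 6.77 and 8.34. The groups did not overlap (log2 change -2.36, SE 0.35, adjusted p = 3.03e-04), and the Holstein controls lay lower, at 2.45 to 5.11, just reaching the lowest positive animal. GABARAPL1 and MAP1LC3A, which build the autophagosome membrane, rose by 1.42 (SE 0.22) and 1.25 (SE 0.23), and UBB, a ubiquitin gene, by 1.16 (SE 0.21). MAP1LC3A fell under 2-fold without the slide of S56 and S57 (0.86) and UBB without that of K7 and K8 (0.95). Of 38 proteasome subunits, 0 were higher and 2 lower by limma (PSMB1 and PSMD4, log2 changes -1.08 and -1.11), and 4 were higher and 15 lower at an unadjusted p under 0.05. PSMB1 lost its call without S56 or K12 (-1.0 each) and PSMD4 without S21 (-0.87). PSMB1 fell further short with each array scaled to its 75th percentile (-0.62) and with normexp (-0.60).

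Few growth signalling genes were called. Of 22 tested genes of insulin and IGF signalling, 2 were higher, IGF1R (log2 change 1.03, SE 0.14) and IGFBP3 (1.07, SE 0.28), and 0 lower by limma (5 at an unadjusted p under 0.05), with a median of -0.10. With pairwise cyclic loess 5 were lower, and with normexp 0 were higher. IGF1R, the receptor, was under 2-fold without S57 (0.99) or K8 (0.97) and under several scalings (0.62 with normexp), and IGFBP3, a carrier of the ligand, without S54 (0.84), K10 (0.93) or K11 (0.99). IGF1 and IGF2, the ligands, overlapped between the groups (log2 changes 0.68 and 0.38, adjusted p = 0.184 and 0.451), but a second IGF2 probe was called higher (log2 change 1.58), so that the IGF2 probes disagree.

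Immediate early genes, which answer to stress, stretch and hormones within minutes, were mostly lower where called. Of 24 tested, 14 were lower and 1 higher (FOSB), with a median log2 change of -1.57. ATF3, a stress-induced repressor, read 10.08, 11.87, 13 and 11.15 against 16.97, 16.16, 15.79, 15.75 and 15.12 (log2 change -4.43, SE 0.54, limma adjusted p = 9.21e-05). The groups were apart, with S56 the highest positive animal here as in the mean over the list. FOS fell by 2.65 (SE 0.65) and IER5 by 3.25 (SE 0.53), both without overlap. EGR1 was spread widely, 8.34 to 13.43 against 10.55 to 15.98, and not called (log2 change -2.77, SE 1.14, adjusted p = 0.0643). FOSB rose by 1.31 (SE 0.49, adjusted p = 0.045) and lost its call without S21, S54, S57, K8, K10, K11 or K12 (log2 change 1.03 to 1.46), in the deposited value table (adjusted p = 0.0522) and in the fits blocked by slide or scan day (adjusted p = 0.0593 and 0.108). Its second probe changed by 0.67. The Holstein controls were at 12.08 to 14.58 for ATF3 and 11.19 to 14.03 for FOS, overlapping the positive animals in both. The commercial animals were sampled immediately after slaughter, and the delay for the controls is not given in the sources used here.

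Lists of other cell types differed in how often their genes were called. Adipocyte, matrix, vessel and erythroid lists were called at 38.1%, 41.7%, 46.2% and 50.0%, against 25.9% of all named genes. Leukocyte and Schwann cell lists, at 29.0% and 27.3%, were near that share. Of 21 tested adipocyte genes, 8 were higher and 0 lower by limma (11 and 1 at an unadjusted p under 0.05), with a median log2 change of 0.89. FABP4, the fatty acid carrier of adipocytes, read 9.46, 10.10, 10.34 and 9.30 against 4.87, 6.44, 4.6, 5.18 and 1.75. No value overlapped (log2 change 5.23, SE 0.75, limma adjusted p = 2.61e-04), and 3 of the 5 controls were well above background. CIDEC, a lipid droplet protein, rose by 4.09 (SE 0.48). ADIPOQ, adiponectin, the defining hormone of fat cells, was not well above background in any control and at least 1.93-fold higher in the positive animals, although K11 (4.11) and S57 (4.10) were level. Its call was lost in the deposited value table (log2 change 1.87, adjusted p = 0.14), with pairwise cyclic loess (1.11, adjusted p = 0.142) and with normexp (0.59). PLIN1, the droplet coat protein, was not called (log2 change 0.89, adjusted p = 0.06). The summed signal of the list was 65600 to 76100 in the positive animals and 51600 to 64500 in the controls, with AGPAT2 the brightest gene (log2 change 0.23, not called). LEP did not pass the filter on dim probes. In the Holstein controls FABP4 was 6.79 to 11.26 and CIDEC 6.52 to 10.97, ranges that enclose the positive animals.

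Fibroblast and matrix genes that were called were mostly lower. Of 36 tested, 14 were lower, 1 higher (ELN) and 21 not called, with a median log2 change of -0.89. COL1A1, the main chain of type I collagen, read 10.81, 10.64, 10.32 and 8.92 against 13.11, 13.87, 11.74, 12.28 and 11.63 (log2 change -2.35, SE 0.51, limma adjusted p = 0.00341). The groups did not overlap, and the Holstein controls were higher than the positive animals at 12.43 to 14.46. FRZB, a secreted Wnt antagonist of connective tissue, fell by 7.25 (SE 0.61), from 10.07 to 12.67 in the controls down to 2.84 to 5.37, where it was well above background in 1 of the 4 positive animals. TNMD, tenomodulin, a tendon protein, was at least 18.4-fold lower, spread from 4.11 to 9.91 among the controls and was not called with normexp (log2 change -1.61, adjusted p = 0.13). DCN and PDGFRA, which mark fibroblasts, were not called (log2 changes 0.25 and -0.18), and a second DCN probe changed by 1.63. Its summed signal was 43900 to 71000 in the positive animals and 61000 to 186000 in the controls, with SPARC the brightest gene. SPARC itself (log2 change -1.04) lost its call without S54, S57, K7 or K8 (-0.96 to -0.81) and with slide (-0.97) or scan day (adjusted p = 0.0508) as a random block. With 2 animals fewer, 6 matrix genes were lower without the slide of S56 and S57, where TNMD (adjusted p = 0.0511) was among the lost calls, and COL3A1 (log2 change -1.77, SE 0.63) lost its call without S56, S57, K8 or K11 (-1.73 to -1.32) and in the fits blocked by slide or scan day (adjusted p = 0.0903 and 0.11). ELN, elastin, rose by 1.11 (SE 0.28) and lost its call without K7 (0.93) and with quantile normalization (0.59).

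Genes of endothelium and of the mural cells around vessels were mostly higher where called. Of 26 tested in this joint list, 11 were higher, among them the mural markers RGS5 and ACTA2 (log2 change 1.11 each), and 1 lower (ANGPT2), with a median log2 change of 0.87. Both mural calls rested on single animals. ACTA2 fell under 2-fold without S56, K10 or K12 (0.97 to 0.98), and RGS5 without S21, S56 or K12 (0.92 to 0.99). RGS5 also lost its call with all 43 arrays in 1 fit (limma adjusted p = 0.0843). NOS3, the nitric oxide synthase of endothelium, read 10.61, 10.88, 11.88 and 10.78 against 9.24, 9.6, 8.25, 9.65 and 9.04, without overlap (log2 change 1.88, SE 0.33, limma adjusted p = 9.6e-04). EMCN and VWF, both surface or secreted markers of vessels, rose by 1.82 (SE 0.17) and 1.55 (SE 0.27). PECAM1 and CDH5, which join endothelial cells, were not called (log2 changes -0.19 and 0.74). The summed signal was 54100 to 109000 against 32800 to 52400, highest in S56, with EGFL7 the brightest gene. EGFL7 (log2 change 1.04) lost its call without S21, S56, S57, K10 or K11 (0.78 to 1.09), and 4 genes were higher without the slide of S56 and S57. Erythroid genes gave 3 of 6 higher (HBA, HBB and HBZ, log2 changes 1.71, 1.0 and 1.76), with HBB reversed to -1.12 under pairwise cyclic loess and under 2-fold without S21, S54, S57, K7, K8 or K12 (0.91 to 0.99).

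Leukocyte markers were mixed, with 4 of 31 higher, among them CD3D, FCER1G and S100A9, and 5 lower, among them CD8A, ITGB2, KLRK1 and LCP1. Together 29.0% were called, near the 25.9% of all named genes. With normexp 0 were higher and 1 lower, and with pairwise cyclic loess 10 were lower. PTPRC, the pan-leukocyte antigen CD45, read 7.57 to 8.01 against 7.40 to 9.34 and was not called (log2 change -0.56, limma adjusted p = 0.165). CD3D, a chain of the T cell receptor complex, rose by 2.89 (SE 0.45) against controls of which 1 was well above background, and lost its call with pairwise cyclic loess (log2 change 0.61, adjusted p = 0.309) and with normexp (0.74). CD3E, of the same complex, was not called (log2 change -0.29), and the difference between these genes was not tested. FCER1G lost its call without S21, K7, K10 or K12 (log2 change 0.88 to 1.0) and turned to -1.48 under pairwise cyclic loess, and LCP1 lost its call without S57 (-0.89) or K8 (-1.04). The Schwann cell and nerve list gave 1 of 11 higher (S100B) and 2 lower (UCHL1 and NEFH), or 27.3%, also near that share. NEFH (log2 change -1.43) lost its call without S56, S57, K8, K10, K11 or K12 (-1.46 to -0.98). S100B, also made by other cells, rose by 2.48 (SE 0.22). The part of these cell type differences in the other results was not tested.

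Other genes among the 12 largest increases and the 12 largest decreases fall outside these lists. For PHF12, BAIAP2L2, C14H8orf34 and a probe described as LHX2, the cross-breed controls, not the positive animals, stood apart from the Holstein controls. PHF12, a chromatin reader, read 16.92, 16.52, 17 and 16.65 in the positive animals and 12.18, 12.36, 10.2, 12.52 and 10.84 in the cross-breed controls, while the Holstein controls held 16.31 to 16.84. Its second probe changed by 0.31 where the first changed by 5.15 (SE 0.45), so that the probes disagree. IPO9, a nuclear import receptor, was placed likewise, at 15.6 to 15.85 against 11.14 to 12.8 and 15.5 to 16.53 in the Holstein controls (log2 change 3.63, SE 0.28). It is not among the 12 largest increases and is named because the study's classifier used it. That classifier was trained on these same 9 animals, so the separation of IPO9 between them followed from its selection. TNP2 and CALR3, genes known from the testis, lay at 7.89 to 8.51 and 7.32 to 7.82 in the positive animals and were well above background in 1 and 0 of the 5 cross-breed controls, while the Holstein controls spread from 3.97 to 14.56 and from 3.44 to 13.20. GSTA2, a glutathione transferase, read 8.59 to 9.49 against 2.56 to 4.53, with 1 of the 5 cross-breed controls well above background, and at most 6.76 in the Holstein controls.

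Among the decreases, a probe described as OTUD1, a deubiquitinase, fell by 5.58 (SE 0.88), with 7.06, 5.42, 10.72 and 9.24 against 12.86 to 14.39, and the Holstein controls at 9.37 to 12.46 overlapped the positive animals. AREG, an EGF receptor ligand, was at least 15.7-fold lower, and was well above background in 5 of the 13 Holstein controls. CBLN4, a secreted protein of the cerebellin family, was at least 10.2-fold lower than in the cross-breed controls and also lay below all 13 Holstein controls (0.41 to 1.72 against 5.18 to 7.16). Over the 12 largest decreases, the positive animals lay below every Holstein control for 10, all but AREG and OTUD1. Over the 12 largest increases, they lay above every Holstein control for 4, GSTA2, HOXC6, HOXC8 and MEIS2. The 2 counts share the positive animals with the comparison that chose the genes. The share of all tested probes beyond every Holstein control was not computed, so neither count is a result about these genes.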

How the data were processed

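The authors deposited scanner files of 43 arrays, in which Agilent Feature Extraction (9.5.1.1 on the positive animals, 9.1.3.1 and 9.5.3.1 on the controls, per the file headers) gives each spot a background-subtracted, detrended processed intensity. Genome build is not given in the sources used here. After log2 transformation, cyclic loess across the 43 arrays was applied and spots not marked as outliers were averaged per probe. Probes under log2 4 on at least 30 arrays were left out, keeping 16354 of 21475. The 9 arrays were fitted with limma 3.58.1 (R 4.3.3), without batch terms. The script was tested on simulated data. Probes were named by gene id (9610), accession (3518), description (2917) or the file's gene name (396), and 5034 stayed unnamed.

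The deposited value table of normalized intensities, on a linear scale, was taken to log2 and served as an alternative. Named genes were the 12 largest increases and decreases, and of each list its lead genes, its 3 largest called changes and its brightest member. Members and lists were chosen with earlier results of these data known. Each animal is 1 sample, and the number of arrays limits the precision. Some members of the leukocyte and Schwann cell lists are counted but not reported here.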

Additional observations from a re-analysis of the deposited data

Results flagged for a closer look

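In 11 of the 430 sets of 4 or 5 animals examined, 1 animal lay farther from the rest of its group than Dixon's 95% limit. Chance alone gives such a gap in about 1 set in 20. Among the positive animals, S21 was low for TNNT3 (10.6, the others 12.18 to 12.32) and for the mean over slow fibre genes (14.6, the others 14.94 to 14.97). S56 was high for TNNC1 (19.1, the others 18.61 to 18.66), the slow troponin C, with saturated spots in S56, S57, K7, K8 and K12, and for the mean over immediate early genes (11.2, the others 10.09 to 10.26). S57 was low for the mean over inflammatory mediators (6.42, the others 6.7 to 6.75).

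Among the cross-breed controls, K10 was high for HOXA11 (11.8, the others 9.79 to 10.31), CSF3 (6.69, the others 5.17 to 5.54) and PSMA1 (13.3, the others 12.71 to 12.85) and low for VWF (9.71, the others 10.45 to 10.7). K12 was low for CCL2 (6.0, the others 9.36 to 10.63) and MYF6 (13.3, the others 14 to 14.08).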

How the results depend on the processing

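The number of called probes, 4597 of 16354 here, was 1378 of 21475 when normexp corrected the background, 7589 of 21475 with dim probes kept, and 4356 to 4654 of 16354 without any 1 animal. The share of called probes that were higher, 51.1%, was 39.1% with quantile normalization, 69.1% with each array scaled to its 75th percentile, 33.5% with pairwise cyclic loess, 45.4% with cyclic loess over the 9 arrays alone, 59.8% with normexp, 67.2% with the filter on probes well above background, 49.3% with all 43 arrays in 1 fit, 46.4% in the deposited value table, 52.6% without the slide of K7 and K8, and 50.5% to 51.9% without any 1 animal. The difference in the mean spike-in signal turned to -0.622 without normalization. With pairwise cyclic loess the log2 change turned to -0.33 for TSC22D3, -1.12 for HBB, -1.96 for INSR, -1.17 for TNNC1, -1.56 for IL1B and -1.56 for TNF, and with normexp that of SLC7A8 turned to 0.21. The cause of these turns was not tested. Of 189 named probes, 118 were called and 68 of these kept call and direction under every alternative. Of the 71 not called, 32 were called under at least 1 alternative, and 127 of their 1703 values had the other sign without a call either way. List members called in all were 242 of 777, 218 to 252 when an animal or slide was left out, 171 with normexp, 199 with all 43 arrays in 1 fit, 223 and 228 with scan day and slide as a random block, and 303 with pairwise cyclic loess. Named genes also lost calls, among them ANGPT2, BNIP3, CCL3, CD8A, FBXO40, KLRK1, NPAS2, PCCB, PER3, RPL28, RPS27A, S100A9, SHOX2, SLC1A5 and SMPX with normexp, CD8A, CDKN1C, CKMT2, CRYAB, HSPB6, MYF6, RPL15, S100A9 and SLC1A5 with pairwise cyclic loess, and CRYAB, MYOD1, PDK4, RPL34, RPS21, TNNT1 and VWF with all 43 arrays in 1 fit. No paired analysis was possible because the animals carry individual numbers that the groups do not share. Because each group lay on slides of its own, positive and cross-breed animals could not be compared within a slide or scan day, and the animals that shared slides with the positive animals are of unknown treatment.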

Other observations

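Antigen presentation and interferon genes were lower in 5 of 26 (BOLA-DMA, BOLA-DMB, CIITA, LOC100848815 and TAPBP) and higher in 0 by limma (12 and 1 at an unadjusted p under 0.05), with a median log2 change of -0.71, and 3 to 11 were lower over the alternatives. CIITA, the master regulator of class II antigen presentation, read 10.02, 10.61, 10.52 and 9.93 in the positive animals and 13.36, 12.91, 12.45, 12.36 and 12.20 in the cross-breed controls (log2 change -2.39, SE 0.26, limma adjusted p = 4.62e-05). The groups were apart, and the Holstein controls lay at 9.94 to 12.25. BOLA-DMB, which loads peptides on class II molecules, fell by 1.69 (SE 0.26), and B2M, the light chain of class I, was not called (log2 change 0.03). TAPBP fell under 2-fold without K10 or K11 (-0.98 each), and LOC100848815 lost its call without S54, S56, S57, K8, K10 or K11 (-1.28 to -1.01) and in the fits blocked by slide or scan day (adjusted p = 0.091 and 0.123). Inflammatory mediators gave 3 of 23 higher and 4 lower, with CCL2, IL1B and TNF not called, and with pairwise cyclic loess 10 were lower and the median moved from 0.04 to -1.04. Of the antigen presentation and inflammatory lists 19.2% and 30.4% were called, against 25.9% of all named genes. CCL3, a chemokine, was at least 2.63-fold higher at 1 probe while the other changed by -1.95.

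Of 27 myogenic and satellite cell genes, 9 were lower and 0 higher by limma (13 and 3 at an unadjusted p under 0.05). MYOD1 and MYF6, regulators of muscle differentiation, fell by 1.75 (SE 0.30) and 1.49 (SE 0.21), and MYOG and MYF5 were not called (log2 changes -0.07 and -0.29). PAX7 was not named on the array. Clock genes gave 4 of 18 lower (NFIL3, NPAS2, PER2 and PER3) and 0 higher by limma (6 and 2 at an unadjusted p under 0.05), with ARNTL and DBP not called, and 0 to 6 were lower over the alternatives. NFIL3 was under 2-fold without S21 (log2 change -0.92), and PER2 without S21 (-0.83) or K8 (-0.96). Myogenic and clock lists were called at 33.3% and 22.2%, against 25.9% of all named genes.

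Cytosolic ribosomal protein genes were called in 4 of 74 higher (RPL27, RPL34, RPS21 and RPS26) and 3 lower (RPL15, RPL28 and RPS27A), or 9.46%, but 15 were higher with each array scaled to its 75th percentile. Heat shock genes gave 1 of 31 higher (CRYAB, log2 change 1.12) and 2 lower (HSPB6 and HSPB7, -1.15 and -1.54), where 1 to 9 were lower over the alternatives. Of 27 genes of amino acid metabolism and transport, 4 were higher (ASNS, BCKDK, PCCB and SLC1A5) and 2 lower (GLUL and SLC7A8). Heat shock and amino acid lists were called at 9.68% and 22.2%, and all 3 lists lay below the 25.9% of all named genes. ASNS fell under 2-fold without S21 (0.98), K7 (1.0) or K12 (0.9), with pairwise cyclic loess (0.56) and with normexp (0.81). With all 43 arrays in 1 fit its limma adjusted p was 0.0933. SLC7A8 (log2 change -1.80) lost its call without S54 (-1.36, adjusted p = 0.0532) and in the fits blocked by slide or scan day (-1.72 and -1.76, adjusted p = 0.0594 and 0.0638). Olfactory receptors, taken from probe descriptions, were mostly dim: 51 of 264 passed the filter and 15 were well above background in all 9 animals. Of the 51, 16 were higher and 11 lower, a split that ran from 1 to 19 higher and from 0 to 21 lower over the alternatives. Together 52.9% were called, against 28.1% of all tested probes. The 4089 dimmest of all tested probes held 1042 higher and 1089 lower calls, so dim probes of any kind were called about as often.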
